A study of Homo sapiens with 17 samples.

Results

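The ATG8 family, the ATG4 proteases and *SQSTM1* carry out the membrane and cargo steps of macroautophagy, and their transcripts were followed in SF8628 cells given a BET bromodomain inhibitor. The set was named gene by gene, by family and not by a threshold on these values, though with earlier results of these data known. It holds 5 genes of the ATG8 family (*MAP1LC3A*, *MAP1LC3B*, *GABARAP*, *GABARAPL1* and *GABARAPL2*), the 4 ATG4 proteases (*ATG4A*, *ATG4B*, *ATG4C* and *ATG4D*) and the cargo receptor *SQSTM1*. All 10 were found by Ensembl identifier among the 60664 genes of the table, and 9 had enough reads to be tested. SF8628 is 1 established cell line from a diffuse midline glioma (DMG) that carries the H3.3 K27M mutation, so every group shares that mutation and that single line. The cells were given the solvent DMSO or 1 μM AZD5153 and collected after 24 or 48 hours, which makes 4 groups of 3 RNA-Seq libraries each (DMSO 24 hours, AZD5153 24 hours, DMSO 48 hours, AZD5153 48 hours). AZD5153 is a small molecule that blocks the bromodomains of BET proteins, readers of acetylated histones. Nothing in the labels says that the 3 libraries of a group came from separate cultures, so the p-values measure the spread between these libraries, which may be technical.

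Macroautophagy encloses cell material in a double membrane, the autophagosome, and delivers it to the lysosome. ATG8 proteins are small ubiquitin-like proteins that are attached to the lipid phosphatidylethanolamine in the growing membrane. They fall into an LC3 branch (*MAP1LC3A*, *MAP1LC3B*) and a GABARAP branch (*GABARAP*, *GABARAPL1*, *GABARAPL2*). The ATG4 proteases cut the tail of each newly made ATG8 protein to expose a glycine, and they also release ATG8 from the lipid again. *SQSTM1* encodes p62, which binds ubiquitinated cargo and ATG8 at once and is itself degraded by autophagy. RNA-Seq measures transcripts, so neither protein, lipidation nor autophagic flux was measured here.

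The ATG4 cut site shows how the family members differ and is given here as the last 10 codons of each coding sequence, stop codon included, read from the GENCODE 44 transcripts. Capitals mark the codon of the glycine that ATG4 exposes.
GABARAP: tacagtgacgaaagtgtctacGGTctgtga
GABARAPL1: tacagtgatgagagtgtctatGGGaaatga
GABARAPL2: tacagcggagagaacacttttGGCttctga
MAP1LC3A: tacgcctcccaggaaaccttcGGCttctga
MAP1LC3B: gagacgttcGGGatgaaattgtcagtgtaa
The glycine is codon 116 of 117 in the GABARAP branch and codon 120 of 121 in *MAP1LC3A*, so 1 codon follows it. *MAP1LC3B* has its glycine at codon 120 of 125, and 5 codons follow it.

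Values are normalized counts, that is reads of a gene divided by the size factor of the library, and they are given for libraries 1, 2 and 3 of a group in that order, then as mean ± SD (n = 3). The reads counted on genes numbered 15759148 to 27335220 per library (median 20737337). Fold changes are on the log2(normalized count + 1) scale with their standard error (SE). They come from 1 limma fit of all 4 groups across 15599 genes, those whose mean was 10 normalized counts or more, and a gene was called at a Benjamini-Hochberg adjusted p under 0.05. Replicate 1 of DMSO at 24 hours stood apart from its group on the second principal component (44.6 against 17.4 and 16.6), and the called AZD5153 effects of these genes that leaving it out moved by over 1.5 times are given both ways. Of the glial markers, *OLIG1* and *OLIG2* were at 0 in every library and *PDGFRA*, a receptor often found in DMG, reached at most 5.40, whereas *SOX2* (119 to 252), *GFAP* (22.8 to 57.5), *VIM* (14454 to 28352), *NES* and *CSPG4* were read. In the whole glial list 6 of 10 genes had a mean of at least 10, and its summed level after 24 hours lay between 28051 and 36738 in DMSO and 26042 and 27528 with AZD5153, and after 48 hours between 23372 and 24395 and 22976 and 24695. Most of these sums was *VIM*. Its means were 22869 in DMSO and 18551 with AZD5153 after 24 hours and 15327 and 15450 after 48 hours. *NES* and *CSPG4* moved with treatment, with 24-hour means of 2050 and 2086 in DMSO against 758 and 441 in AZD5153. *H3-3A* of the same list moved the other way, with means of 4066 in DMSO and 6661 with AZD5153 after 24 hours and 3357 and 7028 after 48 hours. An immune list summed to at most 4.90 in any library, with *CD3E* at 0. The endothelial list had 2 of 3 genes with a mean of at least 10 and moved with treatment, with sums of 324 to 379 in DMSO against 55.1 to 67.0 in AZD5153 after 24 hours and of 596 to 636 against 50.0 to 62.9 after 48 hours, with the defining gene *CDH5* at 0 throughout. The neuron list, with 2 of 3 genes at a mean of at least 10, summed to between 701 and 922 over all groups, while its gene *SNAP25* had means of 33.3 in DMSO and 11.5 with AZD5153 after 24 hours and 51.9 and 19.7 after 48 hours. The epithelial list had 0 of 2 genes at that mean, with *KRT5* at 0, and summed to 8.92 to 18.0 in DMSO against 2.68 to 4.90 with AZD5153 after 24 hours and 11.9 to 18.0 against 0.856 to 5.43 after 48 hours. The part of these markers in the results for the autophagy genes was not tested.

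At both times the same picture held for most of the set: transcripts of 3 ATG8 genes, 3 ATG4 proteases and *SQSTM1* were higher with AZD5153. At 24 hours 7 of the 9 tested genes were called higher and 0 lower, against 33.9% of all tested genes called higher and 34.6% called lower. At 48 hours it was again 7 higher and 0 lower, against 33.1% and 33.9%. No gene of the set was lower at an unadjusted p under 0.05 (0 at each time), and the edgeR and DESeq2 tests on the recovered reads also called 0 lower. The median log2 fold change of the 9 genes was 0.83 at 24 hours and 0.94 at 48 hours, beside medians of 0.00037 and 0.0011 over all tested genes. Scaling by size factors sets the all-gene median near 0, so fold changes here are relative to the other genes. That median was -0.12 and -0.17 under equal totals and 0.065 and 0.087 under quantile normalization. A rise in bulk RNA cannot be divided between more cells of a kind and more RNA per cell.

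*SQSTM1* (ENSG00000161011, GRCh38 chr5:179806398-179838078, plus strand, main transcript of 8 exons) had the largest change of the set at 24 hours. Its normalized counts in DMSO at 24 hours were 10578, 13187 and 14242 (12669 ± 1886). With AZD5153 at 24 hours they were 83974, 84488 and 75631 (81364 ± 4972). The groups were far apart, a 6.42-fold ratio of means, and the log2 fold change was 2.69 (SE 0.081, adjusted p = 1.9e-13). At 48 hours *SQSTM1* had 19887, 19614 and 18199 in DMSO (19233 ± 906). With AZD5153 at 48 hours it had 47070, 46019 and 47147 (46745 ± 630). All AZD5153 libraries were again above all DMSO libraries, but by less, at 2.43-fold and a log2 fold change of 1.28 (SE 0.081, adjusted p = 9.9e-10).

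The gap narrowed from both sides. From 24 to 48 hours *SQSTM1* rose in DMSO (log2 0.61, SE 0.081, adjusted p = 3.6e-05) and fell in AZD5153 (log2 -0.80, SE 0.081, adjusted p = 3.0e-06). The difference of the AZD5153 effect between 48 and 24 hours, tested as the interaction term, was -1.41 on the log2 scale (SE 0.115, adjusted p = 8.3e-07). Replicate 1 of DMSO at 24 hours was the lowest library, and without it the effect at 24 hours was 2.57 and the difference between times -1.29. Quantile normalization gave the smallest effects, 2.21 at 24 hours and 0.78 at 48 hours. After 24 hours *SQSTM1* took 0.0549% to 0.0732% of all reads in DMSO and 0.359% to 0.399% in AZD5153. By reads it ranked 119 to 201 among all genes in the former and 14 to 17 in the latter. After 48 hours its share was 0.0971% to 0.106% with rank 59 to 70 in DMSO, and 0.220% to 0.223% with rank 28 to 29 in AZD5153.

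Most of the last exon of *SQSTM1* lies on another gene. Of the 2840 bases of its main transcript, 1582 (55.7%) are also exon of *MRNIP*, a gene on the opposite strand, and an annotated exon outside that transcript shares 105 bases with *MGAT4B*. Whether the counting used the strand is not given in the sources used here, so reads from the shared bases cannot be told apart. The values of *MRNIP* followed those of *SQSTM1* in direction: 24 hours gave 658 ± 52.6 in DMSO and 3459 ± 226 in AZD5153, and 48 hours gave 986 ± 80.3 and 1844 ± 82.3. Its log2 fold changes were 2.39 and 0.90, and its part in the *SQSTM1* values, which were many times higher, was not tested. *MGAT4B* had log2 fold changes of 0.48 and 0.34, and at 48 hours equal totals (0.17) and quantile normalization (0.15) ended its call.

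**Figure D1:**
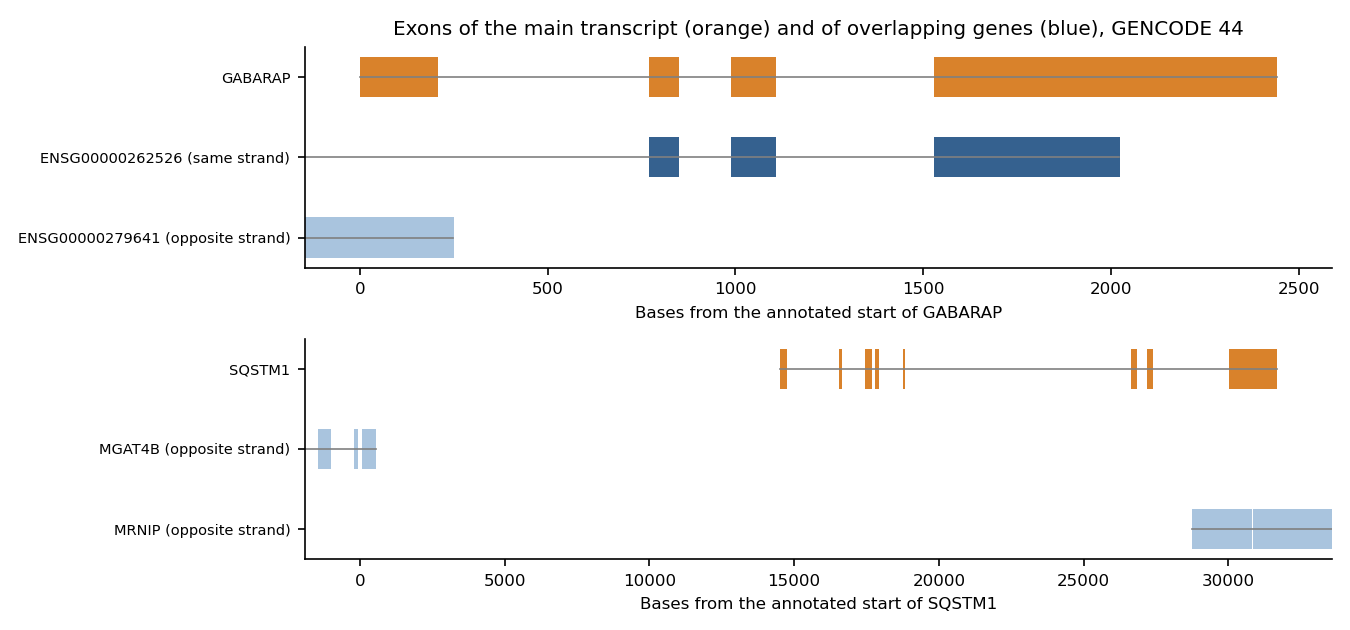
Exon maps of *GABARAP* (top) and *SQSTM1* (bottom) against the genes that share exon bases with them in GENCODE 44. The horizontal axis is the distance in bases from the annotated gene start, orange boxes are exons of the main transcript, dark blue boxes exons of a gene on the same strand and light blue boxes exons of genes on the opposite strand. Most of the long last exon of *SQSTM1* lies on *MRNIP* exons. Of the 4 *GABARAP* exons, 3 share bases with exons of ENSG00000262526, the last of them only in part.

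The promoter of *SQSTM1* is shown because this gene had the largest effect of the set at 24 hours. At 48 hours *MAP1LC3B* (1.40) and *ATG4A* (1.35) had larger values than *SQSTM1* (1.28). The sequence is the 250 bases upstream of the RefSeq start on GRCh38.p14, chr5:179820655-179820904, plus strand, at the start of the main transcript, which is 1 of 3 starts listed. Capitals mark matches to the motifs searched.
SQSTM1: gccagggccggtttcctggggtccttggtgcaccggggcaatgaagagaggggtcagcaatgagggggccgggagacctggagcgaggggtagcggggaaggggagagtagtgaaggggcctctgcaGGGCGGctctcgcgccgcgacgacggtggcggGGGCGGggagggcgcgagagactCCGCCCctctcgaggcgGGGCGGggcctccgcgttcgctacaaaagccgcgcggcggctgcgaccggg
Its 4 matches were all GC boxes (GGGCGG on either strand). GC boxes were present in 45.0% of 35116 promoter windows of 300 bases. The other motifs were CACGTG, the core of the E-box and of the CLEAR element bound by TFEB (in 7.26% of windows), the CRE TGACGTCA (1.85%) and TGACNNNGC, the core of the antioxidant response element (13.3%). TGAGTCA for AP-1 (4.95%), TGTTTAC for FOXO factors (3.42%) and TTGCATCA for ATF4 with C/EBP (0.866%) were searched as well. Both strands were read in a window of 250 bases before to 50 bases after the start. A match says only that the letters are there.

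*MAP1LC3B* (ENSG00000140941, chr16:87383953-87404779, plus strand, 4 exons) encodes LC3B, the ATG8 protein most used as an autophagosome marker. In DMSO at 24 hours it had 1233, 1240 and 1153 normalized counts (1209 ± 48.5). With AZD5153 at 24 hours it had 2682, 2686 and 2788 (2718 ± 60.4). The groups did not overlap, and the log2 fold change was 1.17 (SE 0.051, adjusted p = 1.1e-11). At 48 hours DMSO gave 1263, 1323 and 1333 (1306 ± 38.1). AZD5153 gave 3446, 3440 and 3456 (3447 ± 8.07), a log2 fold change of 1.40 (SE 0.051, adjusted p = 1.4e-12). Its level in DMSO had a change of 0.11 on the log2 scale between the times (adjusted p = 0.096), which was called under equal totals (0.17, adjusted p = 0.020) and quantile normalization (0.19, adjusted p = 0.012). In AZD5153 it rose further from 24 to 48 hours (log2 0.34, adjusted p = 1.1e-04). The difference of the effect between times was 0.23 (SE 0.071, adjusted p = 0.028), close to the threshold, and 11 of 24 alternatives kept the call. Leaving out a single library ended it in 7 cases, with values of 0.21 to 0.23. The edgeR test gave 0.20 (adjusted p = 0.055) and quantile normalization 0.13 (adjusted p = 0.24). An annotated exon of *MAP1LC3B* outside the main transcript shares 60 bases with *FBXO31* on the opposite strand, whose log2 fold changes were 1.42 and 0.67.

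The upstream bases of *MAP1LC3B* are chr16:87392086-87392335, plus strand, at the start of the main transcript.
MAP1LC3B: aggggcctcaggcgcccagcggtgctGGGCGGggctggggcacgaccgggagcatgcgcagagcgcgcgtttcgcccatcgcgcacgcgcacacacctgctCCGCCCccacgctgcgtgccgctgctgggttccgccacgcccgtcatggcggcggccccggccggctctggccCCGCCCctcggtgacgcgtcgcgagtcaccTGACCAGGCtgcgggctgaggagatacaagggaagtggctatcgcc
Capitals mark 3 GC boxes in these bases and TGACCAGGC, a match to the antioxidant response element core, whose first base is at -46 from the start. Of its 4 GC boxes, the other begins at 28, past the bases shown.

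*GABARAPL1* (ENSG00000139112, chr12:10212458-10223128, plus strand, 4 exons), of the GABARAP branch, had the largest ATG8 change at 24 hours. It had 410, 416 and 446 normalized counts in DMSO at 24 hours (424 ± 19.0). In AZD5153 at 24 hours it had 1404, 1352 and 1343 (1366 ± 33.0). This 3.22-fold ratio left the groups well separated (log2 1.69, SE 0.066, adjusted p = 3.8e-12). At 48 hours *GABARAPL1* had 838, 776 and 852 in DMSO (822 ± 40.5). In AZD5153 at 48 hours it had 1546, 1521 and 1396 (1488 ± 80.0), 1.81-fold higher (log2 0.86, SE 0.066, adjusted p = 1.2e-08). The effect was thus smaller at 48 hours, by -0.83 on the log2 scale (SE 0.094, adjusted p = 1.7e-05). The gene rose from 24 to 48 hours in DMSO (log2 0.95, SE 0.066, adjusted p = 1.0e-07), whereas in AZD5153 the log2 change was 0.12 with a 95% interval of -0.02 to 0.26 (adjusted p = 0.19). Scaling to 7 stably expressed genes called that last change, with 0.21 (adjusted p = 0.047).

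The upstream bases of *GABARAPL1* are chr12:10212627-10212876, plus strand, at the start of the main transcript.
GABARAPL1: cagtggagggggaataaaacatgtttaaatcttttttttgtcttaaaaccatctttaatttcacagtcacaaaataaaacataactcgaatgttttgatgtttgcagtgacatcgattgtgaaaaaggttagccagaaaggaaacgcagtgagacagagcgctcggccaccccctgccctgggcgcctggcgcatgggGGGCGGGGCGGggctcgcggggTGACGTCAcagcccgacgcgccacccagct
Capitals mark 2 GC boxes that share 1 base and the CRE TGACGTCA, whose first base is at -30 from the start. Of the 35116 windows, 649 hold that CRE. Of these upstream bases 51.6% are G or C in *GABARAPL1*, against 73.6% in *SQSTM1* and 74.8% in *MAP1LC3B*, and the median over all promoters is 58%. Promoter entries were matched for 8 of the 10 genes, and *MAP1LC3A* and *ATG4D* had none. *GABARAPL2* had 3 GC boxes, *GABARAP* 2 and *ATG4B* 1, while none of the searched letters stood in the windows of *ATG4A* and *ATG4C*.

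*GABARAPL2* (ENSG00000034713, chr16:75566375-75577881, plus strand, 4 exons), also known as GATE-16, had a larger effect at 48 than at 24 hours, unlike its branch mate *GABARAPL1*. In DMSO it had 1460, 1468 and 1442 normalized counts at 24 hours (1457 ± 12.9) and 1480, 1529 and 1462 at 48 hours (1490 ± 34.8). In AZD5153 it had 2259, 2173 and 2251 at 24 hours (2228 ± 47.7) and 2817, 2931 and 2894 at 48 hours (2881 ± 58.5). The DMSO libraries of both times overlapped, and every AZD5153 library was above them. Log2 fold changes were 0.61 at 24 hours (SE 0.048, adjusted p = 1.3e-08) and 0.95 at 48 hours (SE 0.048, adjusted p = 6.7e-11). The effect was larger at 48 hours by 0.34 (SE 0.068, adjusted p = 0.0020), and it rose within AZD5153 by 0.37 from 24 to 48 hours (adjusted p = 3.3e-05).

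*MAP1LC3A* (ENSG00000101460, chr20:34546854-34560345, plus strand, 4 exons), which encodes LC3A, changed with time and did not pass the test for AZD5153. In DMSO it had 81.2, 119 and 158 normalized counts at 24 hours (119 ± 38.3) and 207, 216 and 231 at 48 hours (218 ± 12.1). In AZD5153 it had 153, 153 and 114 at 24 hours (140 ± 22.4) and 186, 222 and 231 at 48 hours (213 ± 23.7). At each time the treated and untreated libraries overlapped, and at each treatment every 48-hour library was above every 24-hour library. The AZD5153 effect was 0.26 at 24 hours (95% interval -0.15 to 0.68, adjusted p = 0.24) and -0.04 at 48 hours (-0.46 to 0.38, adjusted p = 0.87). The 24-hour value depends on the DMSO libraries: it was 0.016 without replicate 1 and 0.49 without replicate 3, and the latter was called (adjusted p = 0.025), as was the value under quantile normalization (0.46, adjusted p = 0.040). From 24 to 48 hours the gene rose by 0.92 in DMSO (SE 0.197, adjusted p = 0.0019) and by 0.61 in AZD5153 (SE 0.197, adjusted p = 0.028). The latter call was kept in 21 of 25 alternatives.

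*GABARAP* (ENSG00000170296, chr17:7240008-7242449, minus strand, 4 exons), the founding gene of its branch, was not tested, and its counts cannot be read as its expression. After 24 hours it had 1, 0 and 2 reads in DMSO and 1, 4 and 0 with AZD5153. After 48 hours the reads were 3, 5 and 4 in DMSO and 5, 5 and 15 with AZD5153. Of the 1319 bases of its main transcript, 691 (52.4%) are also exon of ENSG00000262526, a gene on the same strand that had 0 reads in every library. With ENSG00000279641 on the opposite strand, other genes cover 68.2% of the transcript. How reads on bases of more than 1 gene were counted is not given in the sources used here, and no fold change is given. The cause of the low counts was not tested.

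**Figure D2:**
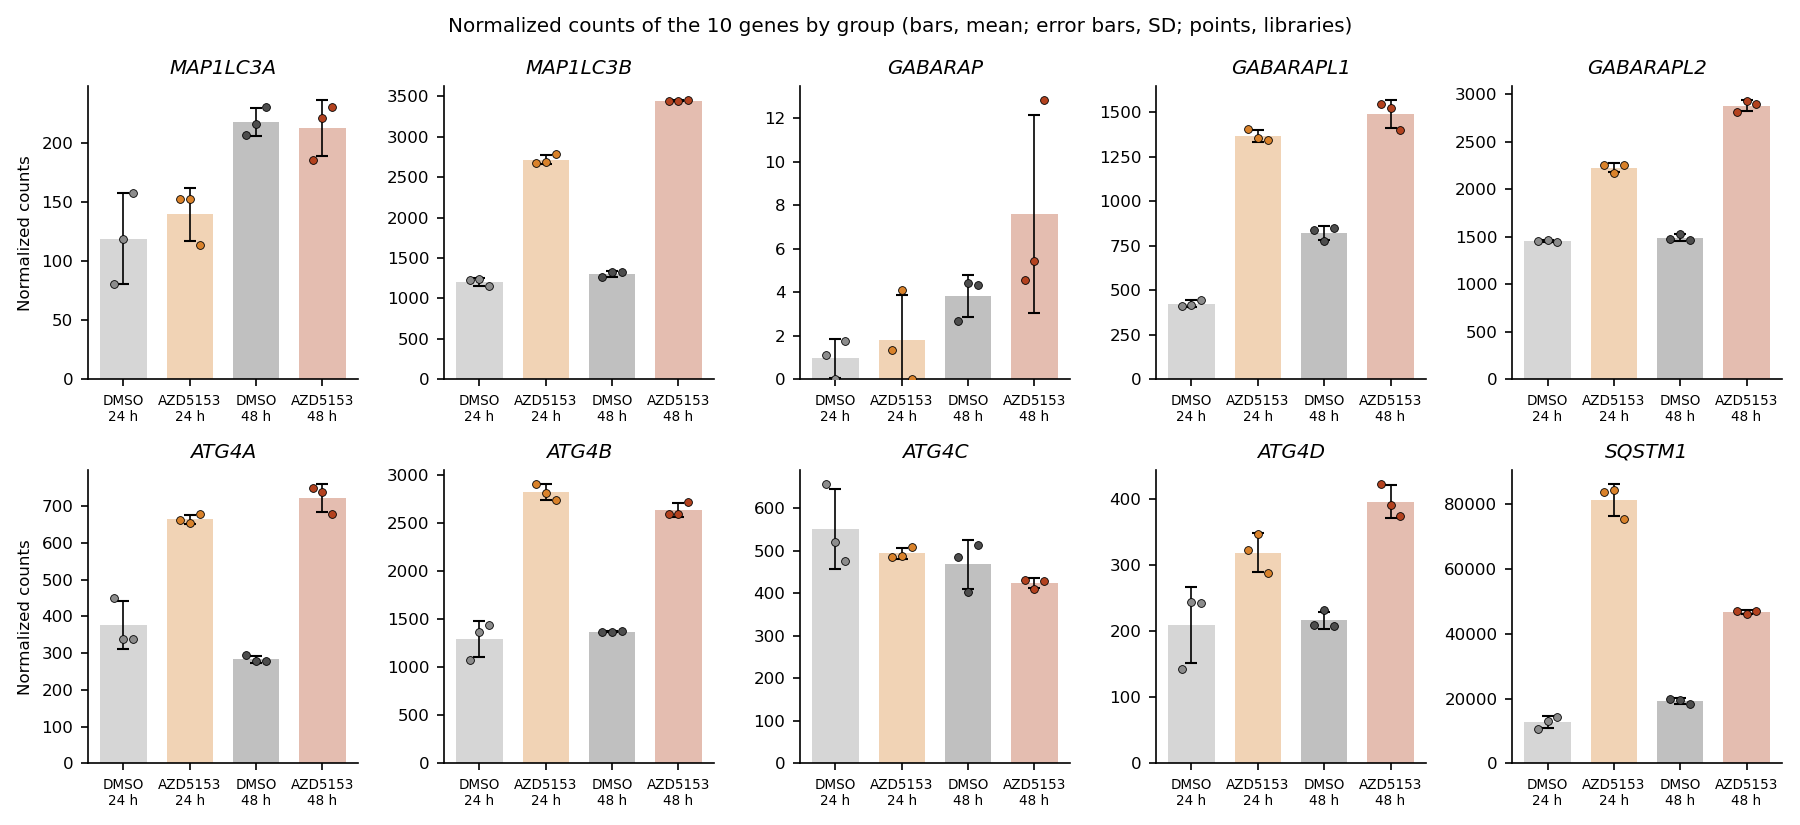
Normalized counts (vertical axis, linear and starting at 0, with its own scale in each panel) of the 10 genes in the 4 groups. Bars are means, error bars SD and points the 3 libraries of a group. In *SQSTM1* the AZD5153 bar falls from 81364 at 24 hours to 46745 at 48 hours while that of DMSO rises from 12669 to 19233, and *GABARAP* stays below 13.

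Among the ATG4 proteases, *ATG4B* had the most reads. *ATG4B* (ENSG00000168397, chr2:241637213-241673857, plus strand, 13 exons) encodes the protease known to act on all ATG8 proteins. It had 1078, 1365 and 1441 normalized counts in DMSO at 24 hours (1294 ± 192). In AZD5153 at 24 hours it had 2911, 2817 and 2745 (2824 ± 83.0). The treated libraries were all well above the untreated ones (log2 1.14, SE 0.082, adjusted p = 4.5e-09). At 48 hours *ATG4B* had 1368, 1368 and 1379 in DMSO (1372 ± 6.22). In AZD5153 at 48 hours it had 2601, 2597 and 2723 (2641 ± 71.8), for a log2 fold change of 0.94 (SE 0.082, adjusted p = 4.2e-08). The difference between times was -0.19 with a 95% interval of -0.44 to 0.05 (adjusted p = 0.25), and -0.06 without replicate 1 of DMSO at 24 hours.

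*ATG4A* (ENSG00000101844, chrX:108091668-108154671, plus strand, 13 exons) encodes a protease known to favour the GABARAP branch. In DMSO it had 451, 340 and 339 normalized counts at 24 hours (376 ± 64.5) and 295, 277 and 279 at 48 hours (284 ± 9.55). In AZD5153 it had 661, 653 and 678 at 24 hours (664 ± 12.7) and 750, 739 and 679 at 48 hours (723 ± 37.8). Every AZD5153 library exceeded every DMSO library of either time. The log2 fold change was 0.83 at 24 hours (SE 0.101, adjusted p = 2.3e-06) and 1.35 at 48 hours (SE 0.101, adjusted p = 8.1e-09). The effect was larger at 48 hours by 0.52 (SE 0.143, adjusted p = 0.016), and in DMSO the gene fell by 0.39 on the log2 scale from 24 to 48 hours (adjusted p = 0.0064). Replicate 1 of DMSO at 24 hours was the high library, and without it the difference between times was 0.38 (adjusted p = 0.014) and the change in DMSO -0.26 (adjusted p = 0.019).

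*ATG4D* (ENSG00000130734, chr19:10543895-10553418, plus strand, 10 exons) had the fewest reads of the proteases. In DMSO it had 142, 243 and 242 normalized counts at 24 hours (209 ± 58.0) and 209, 231 and 207 at 48 hours (216 ± 13.4). In AZD5153 it had 322, 346 and 288 at 24 hours (318 ± 29.4) and 422, 390 and 374 at 48 hours (395 ± 24.6). No treated library overlapped an untreated one. The log2 fold change was 0.64 at 24 hours (SE 0.165, adjusted p = 0.0026) and 0.87 at 48 hours (SE 0.165, adjusted p = 2.1e-04), and the difference between times was 0.23 (95% interval -0.27 to 0.72, adjusted p = 0.52). Without the low replicate 1 of DMSO at 24 hours, the effect at 24 hours was 0.39 (adjusted p = 0.0037) and the difference between times 0.48 (adjusted p = 0.018). Of its main transcript 334 bases (17.0%) are exon of *KRI1* on the opposite strand, which was not called at either time (0.13 and -0.13) but was called lower at 48 hours under equal totals (-0.30, adjusted p = 0.0036).

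*ATG4C* (ENSG00000125703, chr1:62784132-62865516, plus strand, 11 exons) was the protease that was not called. In DMSO it had 657, 522 and 476 normalized counts at 24 hours (552 ± 94.2) and 486, 403 and 514 at 48 hours (468 ± 57.6). In AZD5153 it had 485, 488 and 508 at 24 hours (494 ± 12.3) and 432, 410 and 430 at 48 hours (424 ± 12.3). Treated and untreated libraries overlapped at both times. The log2 fold change was -0.15 at 24 hours (95% interval -0.39 to 0.09, adjusted p = 0.26) and -0.14 at 48 hours (-0.38 to 0.10, adjusted p = 0.30). Scaling to equal totals, which lowers the median of all genes by 0.12 at 24 hours and 0.17 at 48 hours on the log2 scale, called it lower at both times (-0.27 and -0.31). Leaving out the high DMSO library, replicate 1, brought the 24-hour value to -0.013, and the 48-hour value was 0.00077 under quantile normalization.

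**Figure D3:**
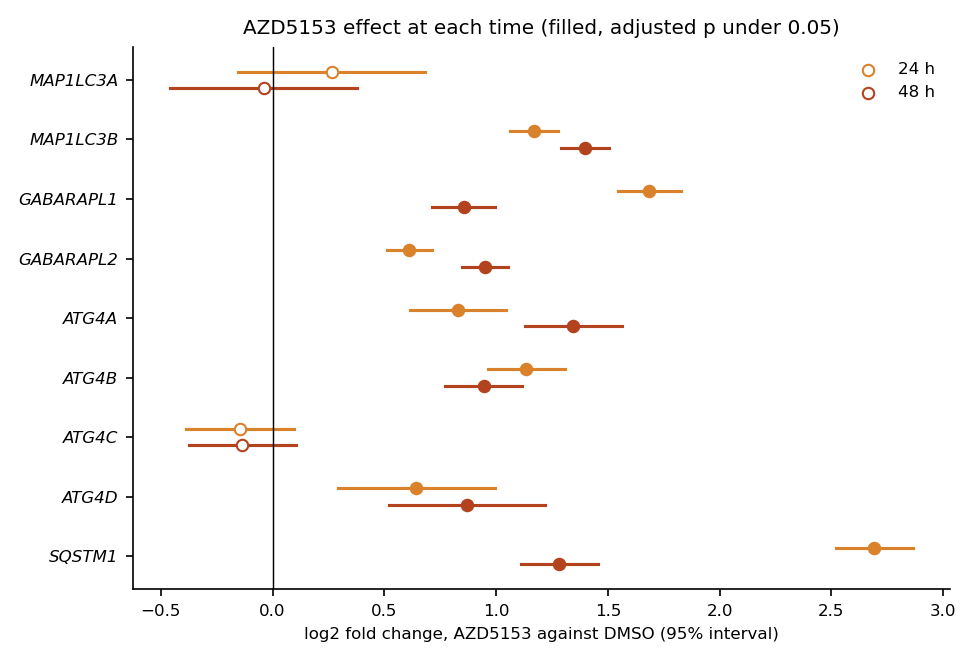
Log2 fold change of AZD5153 against DMSO (horizontal axis) for the 9 tested genes at 24 hours (light orange) and 48 hours (dark orange). Points are limma estimates, filled where the adjusted p is under 0.05, and lines are 95% intervals. *MAP1LC3A* and *ATG4C* reach across 0 at both times, and *SQSTM1* (2.69 and 1.28) and *GABARAPL1* (1.69 and 0.86) have the intervals of the 2 times furthest apart.

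The effect differed between the times in 5 of the 9 genes, by the interaction term. It was larger at 48 hours in 3 (*MAP1LC3B*, *GABARAPL2*, *ATG4A*), against 14.4% of all tested genes. It was smaller at 48 hours in 2 (*GABARAPL1*, *SQSTM1*), against 10.1%. Within DMSO, 3 genes rose from 24 to 48 hours (*MAP1LC3A*, *GABARAPL1*, *SQSTM1*; 16.4% of all tested genes) and 1 fell (*ATG4A*; 19.3%). Within AZD5153, 3 rose (*MAP1LC3A*, *MAP1LC3B*, *GABARAPL2*; 15.8%) and 1 fell (*SQSTM1*; 13.8%). These comparisons share libraries with one another.

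Levels of different genes were compared as normalized counts per kilobase of annotated exon. In DMSO at 24 hours the order began with *SQSTM1* (1681 ± 250), *GABARAPL2* (484 ± 4.28) and *MAP1LC3B* (240 ± 9.63), whose libraries did not overlap. *ATG4B* (195 ± 28.9) and *ATG4C* (177 ± 30.2) followed and overlapped, and *ATG4A* (129 ± 22.0) overlapped *ATG4C* above it and *MAP1LC3A* below it. *GABARAPL1* (105 ± 4.68), *MAP1LC3A* (104 ± 33.3) and *ATG4D* (91.8 ± 25.5) could not be ordered within their spread. With AZD5153 at 48 hours *SQSTM1* (6204 ± 83.6), *GABARAPL2* (957 ± 19.4) and *MAP1LC3B* (684 ± 1.60) again led. *ATG4B* (398 ± 10.8), *GABARAPL1* (367 ± 19.7) and *ATG4A* (247 ± 12.9) came next without overlap, *MAP1LC3A* (185 ± 20.6) and *ATG4D* (174 ± 10.8) overlapped, and *ATG4C* (136 ± 3.96) was last of the 9. These levels depend on the length used. With the longest annotated transcript as the length, *SQSTM1* had 4461 in DMSO at 24 hours and 16460 with AZD5153 at 48 hours, and *GABARAPL2* had 641 and 1267. *MAP1LC3B* (386 ± 15.5) and *ATG4B* (393 ± 58.2) then overlapped in DMSO at 24 hours, and with AZD5153 at 48 hours they had 1100 and 802.

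The summed ATG8 level per kilobase after 24 hours was 933 ± 27.7 in DMSO and 1739 ± 20.9 with AZD5153, and after 48 hours 1149 ± 16.8 and 2197 ± 31.2. *GABARAP* enters this sum with 0.05% to 0.18% in the group means, and since its counts cannot be read as its expression, the total and shares are those of the other 4 ATG8 genes. Among these *GABARAPL2* was the largest share in every group, with 51.9% ± 1.82 in DMSO and 42.6% ± 0.649 with AZD5153 after 24 hours, and 43.1% ± 1.22 and 43.6% after 48 hours. *MAP1LC3B* made up 25.8% ± 1.64 and 31.0% ± 0.888 at 24 hours and 22.6% ± 0.343 and 31.2% at 48 hours. Its share was thus higher in every AZD5153 library than in any DMSO library. *GABARAPL1* went from 11.2% ± 0.286 to 19.4% ± 0.259 at 24 hours but stood at 17.7% ± 0.910 and 16.7% at 48 hours. *MAP1LC3A* took 11.0% ± 3.26 and 6.97% ± 1.10 at 24 hours and 16.5% ± 0.684 and 8.41% at 48 hours. With the longest transcript as the length, the shares of *MAP1LC3B* were 30.1% and 35.9% at 24 hours and 26.8% and 36.0% at 48 hours. Shares are descriptions and were not tested.

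**Figure D4:**
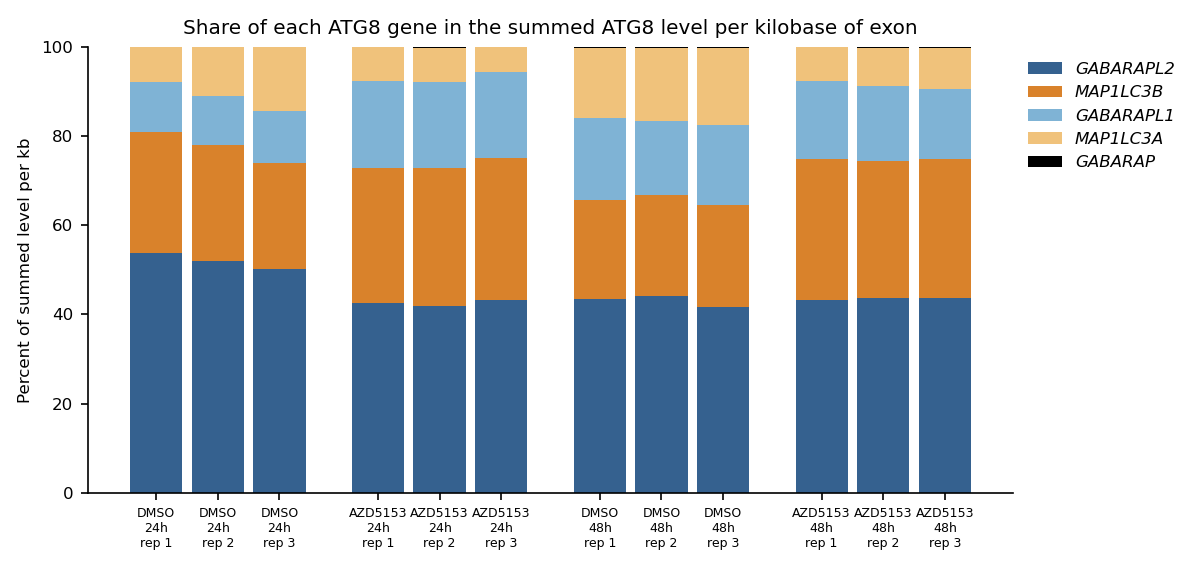
Percent of the summed ATG8 level per kilobase of exon (vertical axis, 0 to 100) taken by each ATG8 gene in each of the 12 libraries. Each bar is 1 library and libraries of a group stand together. *GABARAPL2* is the lowest and widest band in every library, and the *MAP1LC3B* band is wider in AZD5153 than in DMSO at both times.

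Other genes with similar names had few reads. *MAP1LC3C*, a further LC3 gene, had a mean of 12.2 normalized counts and at most 25.7 in a library, and was not called at either time, and *MAP1LC3B2*, a near copy of *MAP1LC3B*, had 6.31. *GABARAPL3* had 0.669. The pseudogenes *SQSTM1P1*, *MAP1LC3P* and *ATG4AP1* were at 0. How reads that align to more than 1 place were treated is not given in the sources used here.

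The counts of the other autophagy lists are read against the same shares of all tested genes as above, 33.9% higher and 34.6% lower at 24 hours and 33.1% and 33.9% at 48 hours. They were not tested against these shares. The ULK complex starts autophagosome formation, and 2 of its 5 genes were higher and 0 lower at 24 hours and 4 higher and 0 lower at 48 hours (medians 0.19 and 0.27), so that the higher genes at 24 hours were near the share over all genes (33.9%). Lower genes of this list also numbered 0 at an unadjusted p under 0.05 and in edgeR and DESeq2. *RB1CC1*, which encodes the scaffold FIP200, had log2 fold changes of 0.28 and 0.49 (adjusted p = 0.0022 and 1.0e-05), and under equal totals 0.15 (adjusted p = 0.065, not called) and 0.32. *ATG101*, a subunit that binds ATG13, had 0.60 and 0.27. Its call at 48 hours (adjusted p = 0.039) was lost without any single library of that time and in 5 other alternatives. The value at 48 hours was 0.09 under equal totals and 0.41 under quantile normalization, which kept the call (adjusted p = 0.0024). The PI3-kinase complex makes the lipid that marks the new membrane. Of 8 listed genes of the complex and its regulators, counted together, 5 were higher and 1 lower at 24 hours. At 48 hours 7 were higher and 0 lower (0 lower also at an unadjusted p under 0.05, in edgeR and in DESeq2), with medians of 0.46 and 0.49. *BECN1*, its Beclin 1 subunit, had 1563 ± 69.0 normalized counts in DMSO and 2347 ± 70.0 with AZD5153 after 24 hours, then 1540 ± 62.3 and 2621 ± 62.3 after 48 hours (log2 0.59 and 0.77, adjusted p = 9.2e-08 and 3.7e-09). *AMBRA1*, a regulator of Beclin 1, had 0.82 and 0.61 (adjusted p = 1.1e-07 and 3.3e-06).

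Lipid supply to the membrane was read from *ATG9*, *ATG2*, WIPI and related genes. Of 9 tested genes of 10, 6 were higher and 2 lower at 24 hours and 7 higher and 0 lower at 48 hours, with medians of 0.30 and 0.36 and beside 33.9%, 34.6%, 33.1% and 33.9% of all tested genes. At 48 hours 1 was lower at an unadjusted p under 0.05, 1 in edgeR and 0 in DESeq2. *ATG2A*, which encodes a lipid transfer protein, had 1456 ± 243 normalized counts in DMSO and 4181 ± 108 with AZD5153 after 24 hours, then 1730 ± 125 and 5050 ± 53.8 after 48 hours. Its log2 fold changes of 1.54 and 1.55 (SE 0.092, adjusted p = 5.0e-10 and 4.7e-10) were nearly equal. Its paralogue *ATG2B* had 0.86 and 0.84 (adjusted p = 2.4e-06 and 3.3e-06).

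Of the 7 genes for the enzymes that attach ATG8 to lipid, 2 were higher and 1 lower at 24 hours and 1 higher and 2 lower at 48 hours (medians -0.08 and 0.09), no larger a share than over all tested genes (33.9% and 34.6%, 33.1% and 33.9%). *ATG3*, the conjugating enzyme that hands ATG8 to the lipid, fell, with 1943 ± 336 normalized counts in DMSO and 1096 ± 55.3 with AZD5153 after 24 hours, then 1383 ± 12.7 and 1047 ± 13.9 after 48 hours. These are log2 fold changes of -0.81 and -0.40 (SE 0.089, adjusted p = 7.3e-07 and 9.2e-04). *ATG12*, a ubiquitin-like gene of the same machinery, rose by 0.33 and 0.54 (adjusted p = 1.4e-04 and 7.1e-07), and by 0.20 at 24 hours under equal totals. The count of lower genes at 24 hours was 3 of 7 under equal totals, a scaling that called 40.3% of all tested genes lower at that time.

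Besides *SQSTM1*, 20 of 21 listed cargo receptors were tested. At 24 hours 12 were higher and 3 lower and at 48 hours 12 higher and 4 lower, with medians of 0.24 and 0.29. Over all tested genes the shares were 33.9% and 34.6%, then 33.1% and 33.9%. *BNIP3*, a mitophagy receptor, rose, with 1766 ± 108 normalized counts in DMSO and 4328 ± 140 with AZD5153 after 24 hours, then 1602 ± 26.8 and 4278 ± 116 after 48 hours (log2 1.29 and 1.42, adjusted p = 5.9e-12 and 2.2e-12). *RTN3*, a receptor for the endoplasmic reticulum, rose by 0.85 and 0.99 (adjusted p = 2.6e-10 and 4.6e-11). In contrast the mitophagy receptors *FUNDC1* (-0.73 and -0.54, adjusted p = 5.0e-06 and 1.1e-04) and *FKBP8* (-0.32 and -0.89, adjusted p = 0.020 and 3.8e-06) fell. Without replicate 1 of DMSO at 24 hours *FKBP8* had -0.52 at that time, and without replicate 3 -0.18. Its 24-hour call was lost without replicate 2 or 3 of DMSO or replicate 3 of AZD5153 (adjusted p = 0.081, 0.11 and 0.073), in a fit of only the groups compared (0.077) and with eBayes without trend (0.065).

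Genes of the fusion with the lysosome, all 14 tested, were higher in 11 and lower in 1 at 24 hours and higher in 11 and lower in 2 at 48 hours, with medians of 0.55 and 0.59, beside 33.9% higher and 34.6% lower of all tested genes at 24 hours and 33.1% and 33.9% at 48 hours. *PLEKHM1*, which encodes an adaptor that binds ATG8 proteins and the fusion machinery, had 414 ± 67.4 normalized counts in DMSO and 1003 ± 14.1 with AZD5153 after 24 hours, then 530 ± 19.7 and 1118 ± 21.5 after 48 hours (log2 1.29 and 1.08, adjusted p = 7.1e-09 and 6.0e-08). *VAMP8*, a SNARE gene, had 1.99 and 1.19 (0.97 and 0.72 with a pseudocount of 10) but few reads, with means of 3.78 and 16.8 at 24 hours and 8.24 and 20.3 at 48 hours. *VAMP8* passed the minimum mean of 10 only through the AZD5153 groups, and it counts among the 11 higher genes at each time. Its 48-hour call (adjusted p = 0.019) was lost without replicate 1 of DMSO or replicate 3 of AZD5153 (adjusted p = 0.055 and 0.072) and with no minimum mean (0.071). *VPS33A*, of the HOPS tethering complex, fell by 0.38 and 0.36 (adjusted p = 0.0047 and 0.0069), and quantile normalization ended both calls (-0.20 and -0.12).

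Of the transcription factors of autophagy genes, 12 of 13 were tested, and 3 were higher and 5 lower at 24 hours and 1 higher and 5 lower at 48 hours, with medians of 0.05 and -0.15. The counts at 24 hours and the lower genes at 48 hours were near the shares over all tested genes (33.9%, 34.6% and 33.9%). *TFEB*, the factor that binds CLEAR elements, had 61.0 ± 21.9 normalized counts in DMSO and 15.9 ± 3.36 with AZD5153 after 24 hours, then 115 ± 13.2 and 36.1 ± 14.7 after 48 hours (log2 -1.83 and -1.74, adjusted p = 1.7e-04 and 2.7e-04). *ATF4*, a factor of the stress response, had 2687 ± 120 in DMSO and 2227 ± 93.0 with AZD5153 after 24 hours, then 3073 ± 218 and 1687 ± 37.8 after 48 hours (log2 -0.27 and -0.86, adjusted p = 8.0e-04 and 2.8e-09). These factors are controlled largely at the protein level, which was not measured here.

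**Figure D5:**
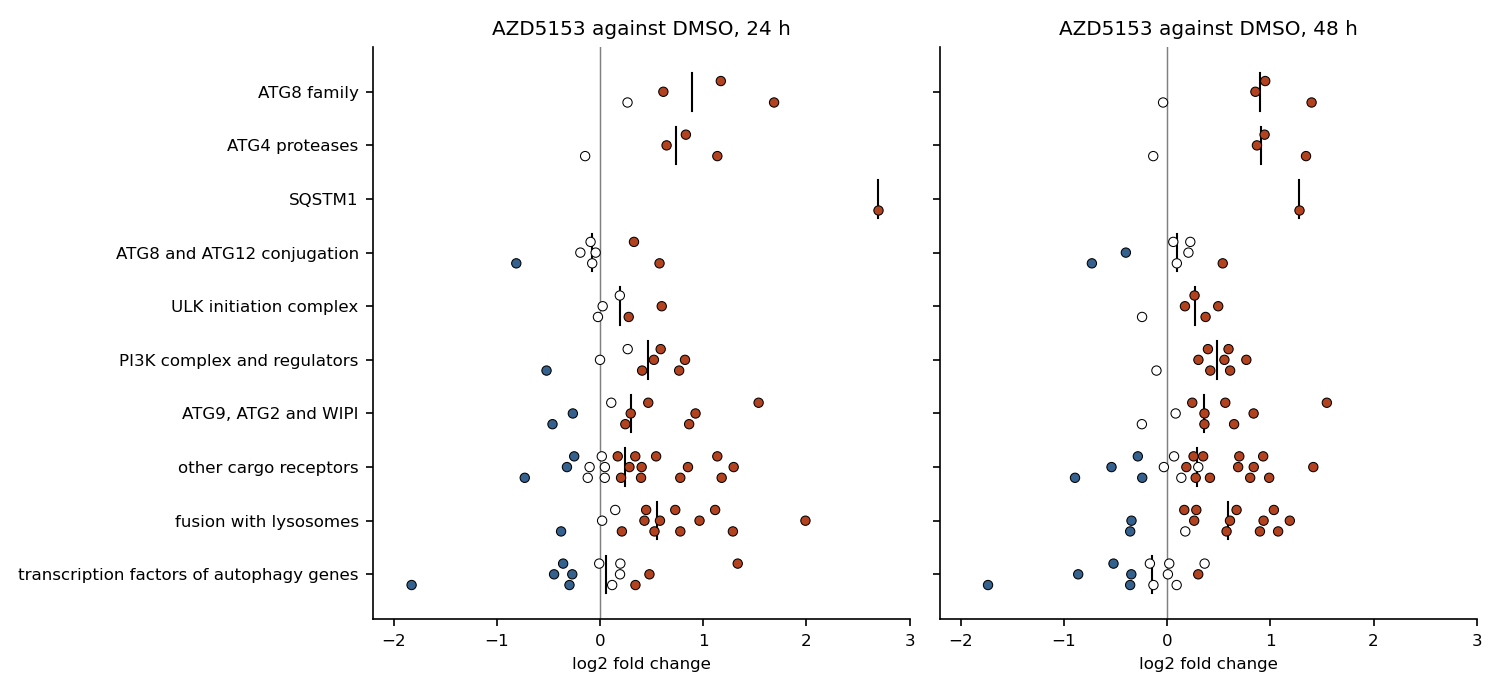
Log2 fold change of AZD5153 against DMSO (horizontal axis) at 24 hours (left) and 48 hours (right) for each tested gene of the set and of the other autophagy lists. Each point is a gene, red where called higher, blue where called lower and white where not called, and the black bar is the list's median. The medians of the ATG8 and ATG4 lists and *SQSTM1* lie to the right of those of all 7 other lists, and conjugation genes and transcription factors have medians near 0.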

How the data were processed

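RNA-Seq of the 12 libraries was used, and 5 CUT&RUN samples were not analysed here. The authors mapped their paired reads with STAR (hg38), used HTSeq for gene counts and scaled these by the size factors of DESeq2, and the versions are not given in the sources used here. The deposited values are thus a normalized signal in which 100% of the values were whole multiples of 1 read (tolerance 0.01 read), so reads could be recovered. The deposited columns with the authors' own comparison (log2 fold changes, standard errors, p-values) were not used. Libraries held 15759148 to 27335220 reads, and replicate pairs differed by more than sampling noise (chi-square per degree of freedom 2.12 to 25.6). Genes whose mean was 10 or more (15599) were tested as log2(value + 1) in limma 3.58.1 (R 4.3.3), with lmFit, eBayes with a trend, a Benjamini-Hochberg threshold of 0.05 and 8 residual degrees of freedom. All 10 genes of the set are named, and from each other list up to 2 genes that rose and 2 that fell most at 48 hours among those called at both times. The genes and lists were chosen with earlier results of these data known. Positions and transcripts are those of GENCODE 44 on GRCh38, and promoters those of RefSeq. The fitting functions were also run on simulated counts, with known changes in a small part of the genes of a single group. That setting is simpler than these data and does not test the calls reported here. Alternatives were the pseudocount (0.5, 10), the minimum mean (none, 100), the scaling (equal totals, quantile, 7 stably expressed genes, TMM), edgeR 4.0.16 and DESeq2 1.42.0 on the recovered reads, a replicate block, only the groups compared, eBayes without a trend, and leaving out each library.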

Additional observations from a re-analysis of the deposited data

Results flagged for a closer look

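The AZD5153 effect differed between 48 and 24 hours, by the interaction term of the limma fit (adjusted p under 0.05), in 5 genes. The difference of the log2 fold change was 0.23 for *MAP1LC3B*, 0.34 for *GABARAPL2* and 0.52 for *ATG4A*, where the effect was larger at 48 hours. It was -0.83 for *GABARAPL1* and -1.41 for *SQSTM1*, where the effect was smaller. Over all tested genes this difference was called positive in 14.4% and negative in 10.1%. The call of *MAP1LC3B* was kept in 11 of 24 alternatives, and those of the other 4 genes in all 24.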

How the results depend on the processing

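Of 1116 values of the tested genes under 25 alternatives, 1072 kept their direction and their side of the threshold, 17 lost and 13 gained the call, 14 uncalled values changed sign, and 0 called values did. Of the 450 for the AZD5153 effect at either time, 4 had another call: *MAP1LC3A* at 24 hours under quantile normalization (0.46) and without replicate 3 of DMSO at 24 hours (0.49), and *ATG4C* under equal totals. Scaling to equal totals thus gave 1 gene of the set lower at 24 hours and 1 at 48 hours, against 0. Under that scaling 40.3% of all tested genes were lower at 24 hours and 41.7% at 48 hours. From 24 to 48 hours in AZD5153, 2 genes of the set were lower when only the groups compared were fitted. That fit called 17.9% of all tested genes lower. For the same change, scaling to 7 stably expressed genes gave 1372 genes of the whole table lower against 2155. Leaving out each library in turn, the genes of the set that were lower at 48 than at 24 hours numbered 1 to 2 in DMSO (2 without replicate 3 of DMSO at 24 hours) and 1 to 2 in AZD5153 (2 without replicate 1 of DMSO at 24 hours). In the 2 fits named, 20.4% and 18.3% of all tested genes were lower. The numbers of the replicates gave no clear sign of pairing: same-numbered libraries had correlations of -0.15 to 0.036 in their deviations over 18 pairs, and 15 of 36 libraries set against another group correlated best with their own number. With 3 libraries per group this check cannot exclude a pairing. With the replicate block 7 genes of the set were higher at each time, 5207 genes of the whole table at 24 hours and 5078 at 48 hours, and *MAP1LC3B* lost its difference between times (adjusted p = 0.052). Few reads limit the precision of *VAMP8*, and *GABARAP*, with 0 to 15 reads, was not tested. The cause of these changes was not tested.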
